A study of Gallus gallus with 6 samples.

Results

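The 9 genes described here concern tissue macrophages, the C1q protein that these cells secrete and the growth factors that act on them. They are the 3 chains of complement C1q (C1QA, C1QB and C1QC), the macrophage growth factor receptor CSF1R with its ligands CSF1 and IL34, and the surface or secreted proteins MARCO, TIMD4 and LY86. They were chosen by gene symbol from a table of 17623 chicken genes, in which 8 carried the symbol. The ninth, IL34, has no symbol there and was found through the NCBI gene identifier in its description. All 9 passed the filter on low counts and lie among the 13774 genes tested, and none of their counts in any library was below 214. The description of the C1QC row (ENSGALG00000029669) names a collagen chain, but the NCBI gene identifier in it belongs to C1QC.

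The libraries were made from total RNA of whole ileum of Taiping chickens aged 2 months, all labelled male. Birds of the control group (CT, n = 3) ate a corn-soybean basal diet. Birds of the MP_FOS group (n = 3) ate the same diet with 2 mL of probiotics and 1 mL of fructo-oligosaccharide per litre of water, which raises the question of whether the supplement alters gene expression in this tissue. The labels number the replicates without saying that each is a separate bird, so that the spread behind each p-value is that between samples and may be technical.

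C1q is assembled from all 3 chains, each a collagen-like stalk with a globular head. It binds antibody on a target and starts the classical complement pathway through the proteases C1r and C1s, and it also marks dying cells for uptake. Unlike most complement proteins, which the liver supplies, C1q is made largely by macrophages and dendritic cells. CSF1R is the receptor on which most tissue macrophages depend for survival, and the gut wall holds one of the large macrophage populations of the body.

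The deposited counts summed to between 11833015 and 18106651 per library. Although every library is labelled male, 4 held transcripts of the W chromosome, which only hens carry. HINTW had between 1846 and 2804 reads in these 4, against 3 in CT replicate 2 and 0 in MP_FOS replicate 2. None of the 9 genes lies on the Z or W chromosome in the GRCg7b assembly, but the fold change of each gene and the median of each gene list are given with and without the libraries numbered 2. The epithelial markers EPCAM (mean of 1510 CPM in CT), VIL1 (818) and CDX1 (251) were abundant, as intestine should show. All 12 epithelial markers listed passed the filter on low counts, and 11 of them had at least 1 CPM in 3 or more libraries. Macrophage markers outside the 9 genes were present too, 27 of 32 being in the table and none at 0 throughout. Their summed level was 3020 to 3340 CPM in CT and 3440 to 3890 CPM in MP_FOS, much of it from cathepsins and legumain, which other cells also make. The cathepsin CTSS alone had 606 to 693 CPM in CT and 844 to 979 CPM in MP_FOS. The sums therefore do not describe the markers as a set. GPNMB, FCER1G and TREM-B1 stayed below 1 CPM on average in each group. GPNMB and FCER1G did not pass the filter on low counts. GPNMB averaged 0.65 CPM in CT and 0.147 CPM in MP_FOS, without overlap. In RNA of a whole tissue, fewer cells of a type and less RNA per cell cannot be told apart.

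Levels of different genes can be compared only per transcript length, for which the deposited FPKM serve (fragments scaled to transcript length and sequencing depth). Over the 6 libraries C1QA had the highest mean FPKM at 97.2, followed by C1QB at 57.3, C1QC at 44.7, CSF1R at 38.8, MARCO at 34.0 and LY86 at 26.7. IL34 and TIMD4 followed at 14.3 and 13.8 FPKM, and CSF1 was lowest, with 11.2 ± 1.12 FPKM in CT and 12.8 ± 1.03 FPKM in MP_FOS. Within every one of the 6 libraries C1QA lay above C1QB and C1QB above C1QC. Further down the order was looser: C1QC lay above CSF1R in only 2 of 6 libraries, and the ranges of all neighbours in the order overlapped. C1QA stood between the 89.9 and 96.0 percentiles of all genes with an FPKM above 0 in its library, and CSF1 between the 52.3 and 62.5 percentiles.

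None of the 9 genes passed the comparison of the diets in edgeR's quasi-likelihood test at an adjusted p of 0.05 (Benjamini-Hochberg, BH, over all genes tested), and neither did any other gene (0 of 13774, 0%). The limma-voom test gave 0 as well. DESeq2 called 104 of 14210 genes (0.732%), none of the 9 among them. The members' adjusted p in edgeR ran from 0.445 to 0.917. Before adjustment 4 of the 9 had a p under 0.05 (C1QB, C1QC, LY86 and CSF1), against 10.6% of all genes tested. The libraries of the diets did not overlap in 2 of the 9, C1QB and CSF1, against 16.7% of all genes. As the genes were selected with earlier results of these data known, these shares are descriptions. Below, values are normalised CPM (counts scaled to the library total), as mean ± SD with n = 3 per group, and log2 fold changes are MP_FOS minus CT from edgeR, ± SE.

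**Figure D1:**
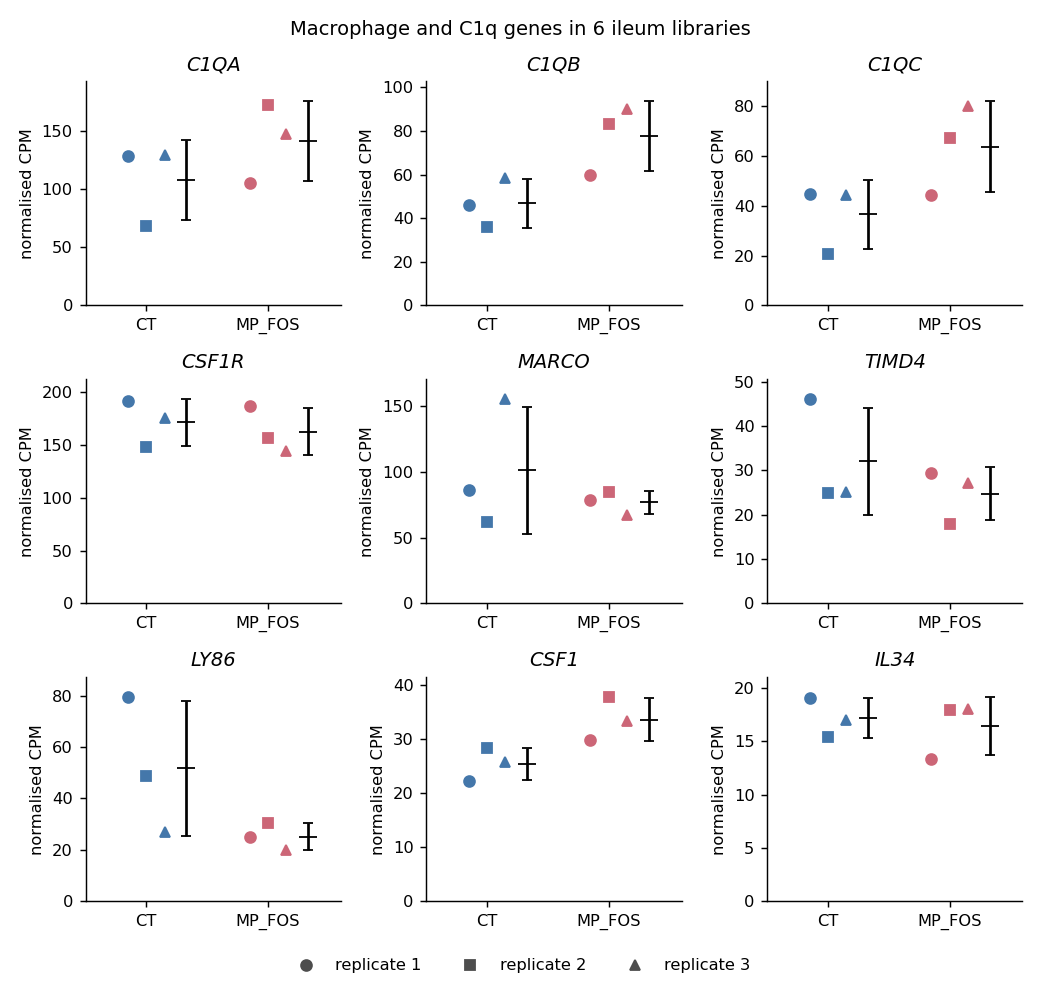
Normalised CPM (y axis, from 0) of the 9 genes in each library, by diet (x axis). Symbols mark replicate 1, 2 and 3, and the black bar is the mean ± SD of 3 libraries. The C1q chains reach their highest values in MP_FOS replicates 2 and 3, CSF1R stays between 144 and 191 CPM in all 6 libraries, and LY86 and TIMD4 are highest in CT replicate 1.

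The C1q chains stood higher on average in MP_FOS ileum, least so C1QA. C1QB (ENSGALG00000004771) had 46.1, 36.1 and 58.5 CPM in CT and 59.8, 83.1 and 90.3 CPM in MP_FOS, in the order of replicates 1, 2 and 3, which all lists of values below follow. All MP_FOS libraries thus lay above all CT libraries, but the closest pair, CT replicate 3 and MP_FOS replicate 1, differed by little and exchanged places in FPKM (56.2 and 53.7). The means were 46.9 ± 11.2 and 77.7 ± 15.9 CPM, a log2 fold change of 0.73 ± 0.22 with an unadjusted p of 0.0133 and an adjusted p of 0.445 (edgeR, BH). It was 0.52 without the libraries numbered 2.

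C1QC had 44.6, 20.6 and 44.3 CPM in CT and 44.2, 67.1 and 79.8 CPM in MP_FOS. MP_FOS replicate 1 was level with CT replicates 1 and 3, MP_FOS replicates 2 and 3 were higher than any CT library, and CT replicate 2 was the lowest of all. The log2 fold change was 0.80 ± 0.33 (edgeR unadjusted p = 0.0463, adjusted p = 0.473), and 0.48 without the libraries numbered 2.

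C1QA (ENSGALG00000021569) had 128, 68.5 and 129 CPM in CT and 105, 172 and 147 CPM in MP_FOS. Here the groups overlapped, with MP_FOS replicate 1 below CT replicates 1 and 3. Its log2 fold change of 0.38 ± 0.29 (edgeR adjusted p = 0.649) rested on the libraries numbered 2, the lowest of CT and the highest of MP_FOS, and was −0.023 without them. CT replicate 2 thus had the least of all 3 chains among the 6 libraries.

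The 3 chains lie next to each other in GRCg7b, in the order C1QB, C1QC, C1QA, with EPHB2 and EPHA8 as the nearest protein-coding genes outside. After each gene was centred on its own mean log2 CPM, C1QB and C1QC differed by a root mean square of 0.24, C1QA and C1QB by 0.25 and C1QA and C1QC by 0.27, and C1QB differed from CSF1R by 0.52 and from LY86 by 1.05. A difference of this size was not seen for the chains alone: CSF1R and IL34 differed by 0.255. C1QB and CSF1 differed by 0.33. EPHB2, an ephrin receptor beside them, averaged 58.0 CPM in CT and 61.8 CPM in MP_FOS (log2 fold change 0.09 ± 0.30), and EPHA8 was below 1 CPM.

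The proportions of the chains varied less than their levels. C1QA made up 54.7, 50.8 and 51.7% of the summed C1q FPKM in CT and 46.2, 49.6 and 42.6% in MP_FOS. C1QC made up 21.9, 17.6 and 20.4% in CT and 22.4, 22.1 and 26.5% in MP_FOS. The diets did not overlap in either share, C1QA being lower and C1QC higher in MP_FOS. For C1QC, CT replicate 1 (21.9%) and MP_FOS replicate 2 (22.1%) nearly met. The C1QB share overlapped, at 23.4, 31.7 and 27.9% in CT and 31.4, 28.3 and 30.9% in MP_FOS. As the shares of a library add up to the whole, they are not separate results. These shares were examined after the values had been seen and were not tested.

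CSF1R (ENSGALG00000005725), the receptor, hardly differed between the diets. It had 191, 148 and 175 CPM in CT and 187, 156 and 144 CPM in MP_FOS, and the ranges of the groups overlapped almost wholly. With a log2 fold change of −0.07 ± 0.16 (edgeR adjusted p = 0.891), its direction depended on single libraries, being 0.013 without CT replicate 1 and 0.007 without MP_FOS replicate 3, and it was −0.14 without the libraries numbered 2. It varied least of the 9 genes, with a coefficient of variation of 12.1% over the 6 libraries, against 41.3% for C1QC and 58.0% for LY86.

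C1q and CSF1R therefore did not keep a fixed ratio. The summed FPKM of the 3 chains was 4.10, 3.06 and 4.77 times that of CSF1R in CT and 4.05, 7.46 and 8.04 times in MP_FOS. MP_FOS replicate 1 had the ratio of a CT library, and MP_FOS replicates 2 and 3 lay above all others. C1QB over CSF1R was 0.959, 0.971 and 1.33 in CT and 1.27, 2.11 and 2.49 in MP_FOS. These ratios, too, are descriptions chosen after the values had been seen.

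**Figure D2:**
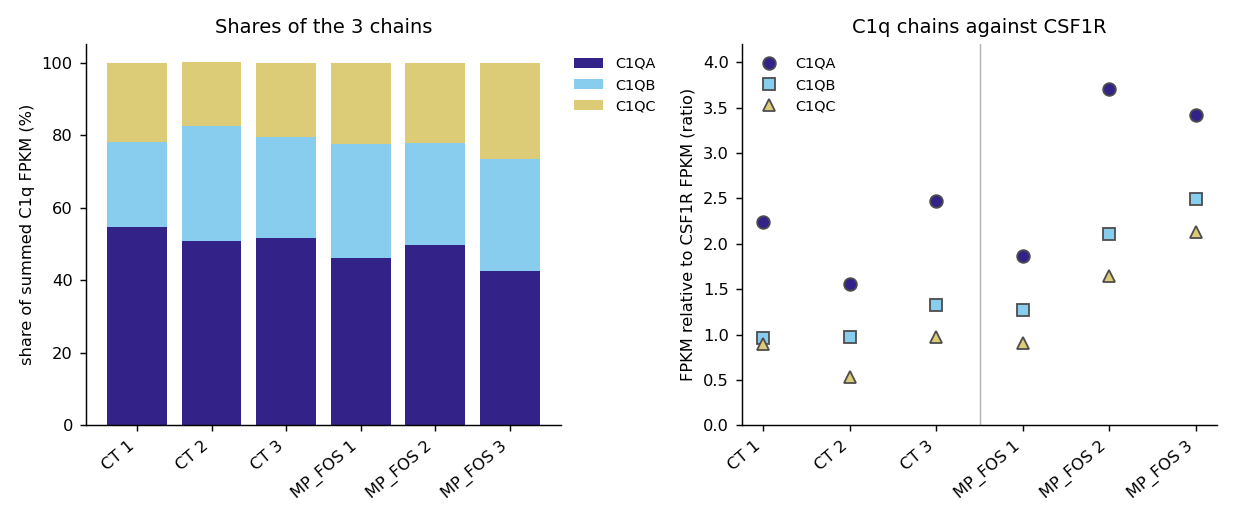
Left, share (%) of each C1q chain in the summed C1q FPKM of a library. Right, FPKM of each chain divided by the FPKM of CSF1R in the same library (y axis from 0). MP_FOS replicates 2 and 3 show the highest ratios, and MP_FOS replicate 1 lies within the CT range for all 3 chains.

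Among the ligands of CSF1R, CSF1 stood higher in MP_FOS and IL34 did not. CSF1 (ENSGALG00000033854), the ligand that fibroblasts and vessel cells supply in many tissues, had 22.3, 28.3 and 25.7 CPM in CT and 29.9, 37.7 and 33.3 CPM in MP_FOS. The groups did not overlap, though CT replicate 2 and MP_FOS replicate 1 were close. The log2 fold change was 0.40 ± 0.15 (edgeR unadjusted p = 0.0290, adjusted p = 0.464), 0.40 without the libraries numbered 2, and 0.18 in limma on log2(FPKM + 1), less than in CPM by over 1.5 times. EPS8L3, beside CSF1 in GRCg7b, had 272, 331 and 264 CPM in CT and 389, 420 and 380 CPM in MP_FOS, without overlap. Its log2 fold change was 0.45 ± 0.14 (edgeR adjusted p = 0.448), and that of AHCYL1, on the other side, was 0.13 ± 0.22. Whether reads of neighbours enter the CSF1 difference was not tested.

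IL34 (ENSGALG00000028466), the second ligand, best known in mice from skin and brain, had 19.1, 15.4 and 17.0 CPM in CT and 13.3, 17.9 and 18.0 CPM in MP_FOS. Its groups overlapped, and MP_FOS replicate 1 was the lowest library. The log2 fold change was −0.07 ± 0.18 (edgeR adjusted p = 0.917), −0.205 without the libraries numbered 2, and above 0 without CT replicate 1 (0.018) or MP_FOS replicate 1 (0.060). On the per-length scale the ligands were of similar level, CSF1 reaching 0.591, 0.929 and 0.764 times the FPKM of IL34 in CT and 1.11, 0.963 and 0.793 times in MP_FOS. IL34 was thus the more abundant transcript per length in 5 of 6 libraries.

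The surface receptors MARCO and TIMD4 had lower means in MP_FOS, each through 1 CT library. MARCO (ENSGALG00000012119), a scavenger receptor that binds bacteria, had 86.1, 61.6 and 155 CPM in CT and 78.5, 84.7 and 67.4 CPM in MP_FOS. Apart from CT replicate 3, all libraries lay between 61.6 and 86.1 CPM. Its log2 fold change of −0.39 ± 0.32 (edgeR adjusted p = 0.674) became 0.059 without CT replicate 3 and was −0.72 without the libraries numbered 2.

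TIMD4 (ENSGALG00000003876), a receptor for the phosphatidylserine exposed by dying cells and a mark of long-lived resident macrophages in mice, had 46.0, 25.0 and 25.1 CPM in CT and 29.3, 17.9 and 27.1 CPM in MP_FOS. CT replicate 1 stood apart, and CT replicates 2 and 3 lay within the MP_FOS range. The log2 fold change of −0.37 ± 0.29 (edgeR adjusted p = 0.666) was −0.018 without CT replicate 1 and −0.33 without the libraries numbered 2. HAVCR1, the related gene beside it in GRCg7b, averaged 38.5 ± 8.84 against 43.6 ± 4.98 CPM.

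LY86 (ENSGALG00000012801), also called MD-1, is a secreted protein that pairs with CD180 on B cells and macrophages in mice and humans, and it had the largest fold change of the 9 genes. The CT libraries had 79.3, 48.7 and 27.1 CPM, and the MP_FOS libraries had 25.1, 30.6 and 19.9 CPM. The spread lay mainly within CT, and CT replicate 3 fell below MP_FOS replicate 2. The means were 51.7 ± 26.3 and 25.2 ± 5.35 CPM, a log2 fold change of −1.03 ± 0.37 (edgeR unadjusted p = 0.0258, adjusted p = 0.464). It was −0.59 without CT replicate 1 and −1.23 without the libraries numbered 2. CD180, its partner, was low at 3.86 ± 1.05 against 3.59 ± 0.183 CPM. F13A1, beside LY86 in GRCg7b, averaged 9.68 ± 3.17 against 5.83 ± 2.86 CPM, with overlap. RREB1, on the other side, averaged 68.1 ± 3.94 against 62.8 ± 7.37 CPM. Like LY86, 8 of the 9 B cell markers tested had lower means in MP_FOS. Their median log2 fold change was −0.68, and also −0.68 without the libraries numbered 2. That median was −0.39 without CT replicate 1, the library with the most LY86, and −0.45 without MP_FOS replicate 2. The summed level of these markers overlapped between the diets, at 978 to 1610 CPM in CT and 1010 to 1530 CPM in MP_FOS. By library, their median log2 CPM minus the CT mean was −0.49 in CT replicate 2, and −0.44, −0.9 and −0.24 in MP_FOS. None of the B cell markers passed edgeR or DESeq2, and 4 of the 9 had an unadjusted p under 0.05 in edgeR, against 10.6% of all genes tested. Their part in the LY86 difference was not tested.

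**Figure D3:**
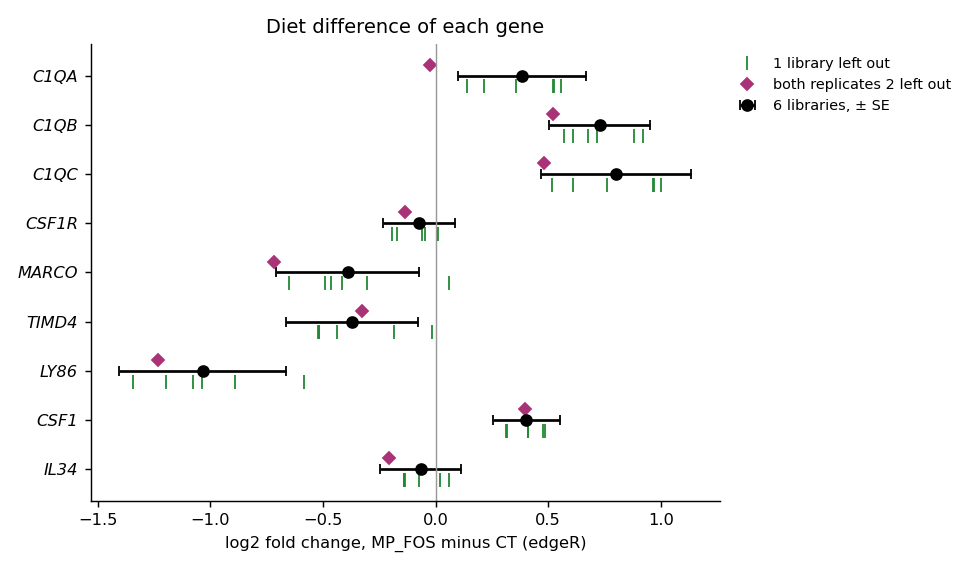
Log2 fold change of each gene, MP_FOS minus CT (x axis). Black points with bars are the edgeR estimate ± SE from 6 libraries, green ticks the 6 estimates with 1 library left out, and diamonds those without both replicates numbered 2. All estimates for C1QB, C1QC and CSF1 lie above 0 and all for LY86 and TIMD4 below it, while those of C1QA, CSF1R, MARCO and IL34 reach both sides of 0.

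By a rule that took the genes of at least 5 CPM whose centred log2 CPM came closest to that of C1QB over the 6 libraries, the nearest of 10343 genes were SRCIN1, CCDC15, RP9, SLC25A37 and MCM8, at root mean square differences of 0.10 to 0.14. C1QC and C1QA themselves were farther away. Nearest to CSF1R were GPR155, THAP7, CDC34, NOP53 and BTD, at 0.04 to 0.06. With 6 libraries and many genes such close matches are frequent, and they describe these libraries only.

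Of 25 other macrophage markers tested, 13 were higher and 12 lower in MP_FOS, with a median log2 fold change of 0.06 against 0.01 over all genes. None passed edgeR, 2 had an unadjusted p under 0.05 there, and DESeq2 called 1, CTSS. Over all genes, 10.6% had an unadjusted p under 0.05 in edgeR, DESeq2 called 0.732%, and 16.7% did not overlap between the diets. These shares are the background for every list below as well. CTSS, a cathepsin that prepares peptides for MHC class II, had 693, 619 and 606 CPM in CT and 844, 951 and 979 CPM in MP_FOS (log2 fold change 0.53 ± 0.14, edgeR adjusted p = 0.445, DESeq2 adjusted p = 0.0359). SLC11A1, a metal transporter of phagosomes, averaged 3.15 ± 0.952 against 6.54 ± 2.30 CPM, without overlap. The direction of the median depended on the measure and on the libraries. With all 6 libraries it was −0.028 in limma on log2(FPKM + 1) and −0.114 on log2(FPKM + 0.1), each with 10 higher and 15 lower. In edgeR the median was 0.14 with 17 higher and 8 lower without the libraries numbered 2, and 0.14 without MP_FOS replicate 2 alone. It was −0.13 without MP_FOS replicate 1, −0.002 without CT replicate 3 and −0.025 without MP_FOS replicate 3.

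Among genes that act with CSF1R or as other myeloid growth factor receptors, 10 of the 19 tested were higher and 9 lower, with a median of 0.06 (all genes 0.01). None passed edgeR or DESeq2, and 3 had an unadjusted p under 0.05 in edgeR. The median was 0.002 without the libraries numbered 2, 0.002 without MP_FOS replicate 3 and −0.085 without MP_FOS replicate 1. IRF8, a transcription factor of monocytes and dendritic cells that B cells also use, had 290, 311 and 381 CPM in CT and 363, 630 and 668 CPM in MP_FOS. MP_FOS replicate 1 stood within the CT range and the other two above it, which was also the case for C1QC. CSF2RA, the receptor chain for GM-CSF, averaged 5.33 ± 0.679 against 8.88 ± 2.93 CPM, without overlap. SPI1, the factor PU.1 that switches on CSF1R in macrophages, averaged 98.7 ± 10.2 against 122 ± 13.3 CPM and was chosen after its values were seen.

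The remaining complement genes went both ways, 11 of the 21 tested being higher and 10 lower (median 0.03). None passed edgeR or DESeq2, and 2 had an unadjusted p under 0.05 in edgeR. C1R, the protease that C1q activates first, had 47.5, 30.7 and 42.6 CPM in CT and 35.0, 108 and 111 CPM in MP_FOS. C1S, the protease that follows it, had 114, 71.8 and 89.9 CPM in CT and 61.8, 141 and 199 CPM in MP_FOS. It was added after its values were seen. The log2 fold change was 1.07 ± 0.42 for C1R (edgeR adjusted p = 0.467) and 0.54 ± 0.39 for C1S (adjusted p = 0.648). The groups overlapped for both. C3, also added later and with the adjusted p of C1S, went the other way, at 146 ± 49.1 against 105 ± 39.6 CPM (−0.47 ± 0.34). For C1R and C1S, as for C1QC, MP_FOS replicates 2 and 3 were above every CT library and MP_FOS replicate 1 was not. The share of all genes with this order, seen also in IRF8 above and BATF3 below, was not counted. Of the genes nearest to C1QB, SRCIN1, SLC25A37 and MCM8 had it, and CCDC15 and RP9 did not. The row taken as CR1 is named SVEP1 in the deposited table and CR1 in RefSeq for the same gene identifier, so its identity is uncertain. It averaged 51.8 ± 4.11 against 35.1 ± 10.8 CPM, without overlap. Without the libraries numbered 2, 10 of the 21 genes were higher (median −0.046), and the median was also below 0 without CT replicate 3 (−0.007).

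Of the proteins that bind C1q or were proposed as its receptors, 3 of 8 were higher and 5 lower (median −0.27), and none passed edgeR, where 1 had an unadjusted p under 0.05. Without the libraries numbered 2, 1 was higher and 7 lower (median −0.31), and without MP_FOS replicate 3 the median was −0.175. DESeq2 called 1 of them, CD93, named once as a C1q receptor and made by endothelium. It had 42.6, 38.0 and 43.5 CPM in CT and 25.4, 21.4 and 23.2 CPM in MP_FOS (DESeq2 adjusted p = 0.00176, edgeR adjusted p = 0.445). DCN, a matrix proteoglycan that binds C1q, averaged 311 ± 19.5 against 256 ± 17.4 CPM. Both are products of stroma or vessels, whose markers stood lower in MP_FOS in 11 of 12 cases (median −0.44). Their summed level was 5340 to 5590 CPM in CT and 3610 to 5010 CPM in MP_FOS. DCN is itself among these 12, so the count, median and sum include it. None of the 12 passed edgeR or DESeq2, 6 had an unadjusted p under 0.05 in edgeR, and 8 did not overlap between the diets. The median of these markers was −0.45 without the libraries numbered 2. Their part in these differences was not tested.

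Genes for the uptake of dying cells, the process in which TIMD4 takes part, were lower in MP_FOS in 16 of 18 cases, with a median log2 fold change of −0.26 (all genes 0.01). None passed edgeR or DESeq2, and 3 had an unadjusted p under 0.05 in edgeR. ABCA1, a lipid exporter that macrophages use after such uptake, had 88.1, 110 and 87.8 CPM in CT and 72.2, 67.3 and 57.2 CPM in MP_FOS. PROS1, a bridging ligand of the TAM receptors, averaged 138 ± 29.1 against 98.5 ± 13.3 CPM. The exceptions were HAVCR1 and MERTK, the TAM receptor typical of macrophages, which averaged 43.7 ± 8.66 against 53.6 ± 5.90 CPM. Without the libraries numbered 2, 15 of 18 were lower (median −0.32). Many of these genes are also made by the stroma just described, and its part was not tested.

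Scavenger receptors other than MARCO were lower in 8 of 10 cases (median −0.26). None passed edgeR or DESeq2, and 2 had an unadjusted p under 0.05 in edgeR. Without the libraries numbered 2, 7 of 10 were lower (median −0.28). COLEC12, a collectin of vessels that shares a collagenous stalk with MARCO, had 23.4, 24.5 and 24.5 CPM in CT and 18.2, 15.1 and 14.9 CPM in MP_FOS. CD36, which also takes up fatty acids in enterocytes, averaged 70.0 ± 28.6 against 40.6 ± 9.59 CPM. CD163, here an assembled locus, averaged 0.999 ± 0.661 against 2.29 ± 1.33 CPM, or 1.99 ± 1.28 against 4.37 ± 2.47 FPKM, and MSR1 was not matched.

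Around the TLR4 complex, whose MD-2 subunit LY96 is a relative of LY86, 4 of 10 genes were higher and 6 lower (median −0.14). None passed edgeR or DESeq2, and 1 had an unadjusted p under 0.05 in edgeR. The median was 0.013 without the libraries numbered 2, 0.016 without MP_FOS replicate 3 and −0.037 and −0.024 without CT replicates 1 and 2. MYD88, the adaptor of most Toll-like receptors, had 125, 128 and 127 CPM in CT and 133, 361 and 237 CPM in MP_FOS. LY96 averaged 16.5 ± 1.91 against 24.6 ± 8.63 CPM, opposite in direction to LY86. Dendritic cell markers were higher in 5 of 10 cases (median −0.03), with 0 called by edgeR or DESeq2 and 2 at an unadjusted p under 0.05 in edgeR. Their median was 0.25 without the libraries numbered 2 and −0.22 without MP_FOS replicate 1. BATF3, a factor of cross-presenting dendritic cells, had 13.4, 13.6 and 20.7 CPM in CT and 12.6, 94.3 and 73.4 CPM in MP_FOS, again with replicate 1 at the CT level, and ID2 averaged 87.5 ± 5.31 against 116 ± 17.2 CPM. Of the other cell types of the gut wall, T and NK cell markers were higher in 6 of 13 cases (median −0.02), heterophil and mast cell markers in 5 of 7 (0.32) and epithelial markers in 8 of 12 (0.23). Without the libraries numbered 2 these medians were 0.10, 0.083 and 0.085. They shifted with single libraries: without MP_FOS replicate 2 they were 0.11, 0.18 and 0.018, with 6 of 12 epithelial markers higher. Without MP_FOS replicate 1 the heterophil and mast cell median was 0.55, without MP_FOS replicate 3 it was 0.185 and the epithelial one 0.42, and without CT replicate 3 the T and NK cell median was 0.048.

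**Figure D4:**
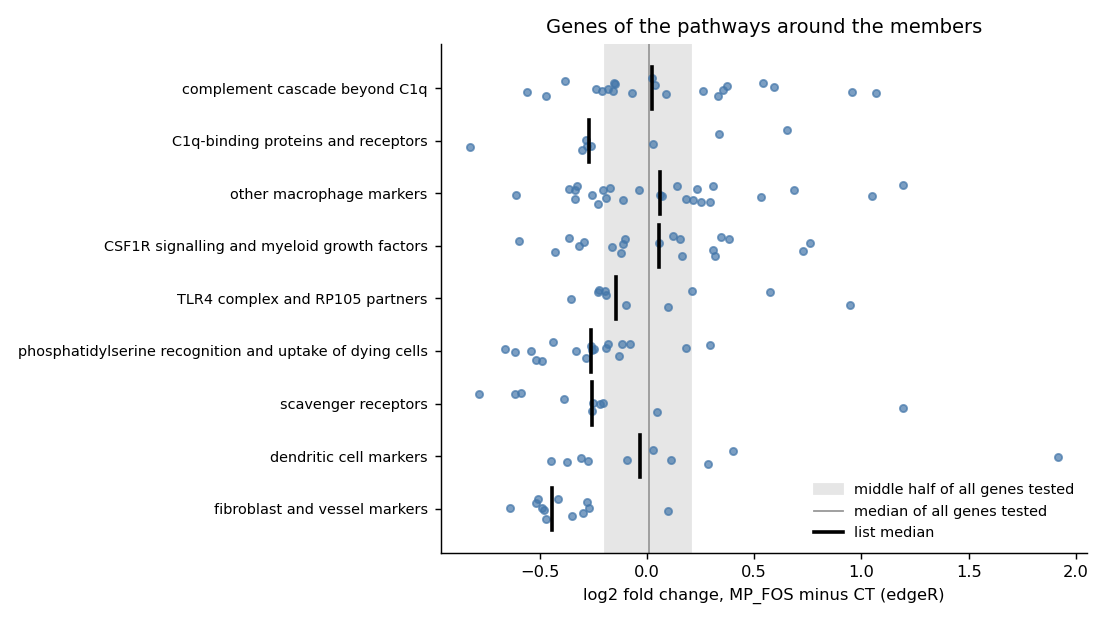
Log2 fold change, MP_FOS minus CT (x axis), of every tested gene in 9 lists (points, spread vertically for visibility), with list medians (black) over the middle part (quartiles, grey) and median of all genes tested. Macrophage, CSF1R and complement lists centre near 0. The lists for C1q-binding proteins (median −0.27), uptake of dying cells (−0.26), scavenger receptors (−0.26) and fibroblast and vessel markers (−0.44) centre below the grey band.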

How the data were processed

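The authors deposited 1 gene table with estimated counts (expected counts, 7.98% not whole) and FPKM for 6 libraries, per the file headers. HISAT2, Bowtie2, StringTie, DESeq2 and fastp 0.18.0 appear in the submitters' processing notes. Their roles, the build and the strand setting were not given in the sources used here, so reads of overlapping genes cannot be told apart. The labels name a small RNA kit, although genes of all lengths are listed.

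Rounded counts entered edgeR 4.0.16 in R 4.3.3 (filterByExpr, TMM, quasi-likelihood F test, two-sided, BH over 13774 genes, threshold 0.05), checked on simulated counts. Each SE was taken as |log2 fold change| over the root of F. DESeq2 1.42.0, limma 3.58.1, other scalings, filters (none, or 1 CPM in 3 libraries), a robust fit, FPKM with pseudocounts of 1 and 0.1, a replicate block and left-out libraries were alternatives. Log2 CPM used a prior count of 2. Gene neighbours and 1 member's name came from the RefSeq table for GRCg7b. Where no row carried a listed symbol, the RefSeq symbol of the row's NCBI gene identifier was used. Among others, this took rows that the table names SVEP1, ASPN, TYRO3 and TREM-A1 as CR1, BGN, AXL and TREM2.

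The members and lists were chosen with earlier results of these data known. Some genes, such as DCN, LRP1, MEGF10, MERTK, STAB1 and STAB2, stand in more than 1 list, so the lists are not separate results. Named genes are all members, the 2 of each pathway list with the smallest unadjusted p, and the nearest genes to C1QB and CSF1R. CTSS and IRF8 were also fixed. Neighbouring genes, list members that explain a role (such as CD180, LY96, MERTK and CD163) and markers used to check the tissue were chosen after their values were seen. The C1q-domain list in the closing section was added later.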

Additional observations from a re-analysis of the deposited data

How the results depend on the processing

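None of the 9 genes was called under any alternative run. The number of genes called rose from 0 to 104 with DESeq2 and to 1 without both libraries numbered 2, and with 1 library left out it ran from 0 to 223, the highest without MP_FOS replicate 1. With 1 library left out, the log2 fold changes ran from 0.14 to 0.56 for C1QA, 0.57 to 0.92 for C1QB, 0.52 to 1.00 for C1QC, 0.31 to 0.48 for CSF1, −1.34 to −0.59 for LY86 and −0.52 to −0.018 for TIMD4. They changed sign in CSF1R (0.013 without CT replicate 1, 0.007 without MP_FOS replicate 3, lowest −0.19), IL34 (0.018 without CT replicate 1, 0.06 without MP_FOS replicate 1, lowest −0.14) and MARCO (0.059 without CT replicate 3, lowest −0.65), and that of C1QA did so without both libraries numbered 2 (−0.023). The cause was not tested. Deviations of same-numbered libraries from their group means correlated over genes at 0.02, 0.28 and 0.16 for numbers 1, 2 and 3. Libraries of different number gave −0.23 to 0.12. The main fit did not take the numbers as pairs. With the replicate number as a block the members' log2 fold changes kept their sign (C1QB 0.74, LY86 −0.93) and 0 genes were called.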

Other observations

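C1q gives its name to a family of secreted proteins that carry the same globular head, among them adiponectin and the C1QTNF proteins, which fat, stroma and vessels make. Of 16 such genes tested beside the 3 C1q chains, 15 had lower means in MP_FOS, with a median log2 fold change of −0.39 against 0.01 over all genes, whereas all 3 C1q chains had higher means. None passed edgeR or DESeq2, and 3 had an unadjusted p under 0.05 in edgeR. ADIPOQ averaged 150 ± 17.1 CPM in CT and 123 ± 26.5 CPM in MP_FOS, C1QTNF6 averaged 18.0 ± 3.63 and 11.6 ± 2.66 CPM, and EMILIN2, a matrix protein, averaged 23.3 ± 2.85 and 17.3 ± 3.26 CPM without overlap. Without the libraries numbered 2, 13 of 16 were lower (median −0.35). This list was drawn up after the values of the C1q chains had been seen, and the part of the lower stromal markers in it was not tested.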
